A study of Mus musculus with 4 samples.

Results

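Translation initiation factors (eIFs) were described in mouse haematopoietic stem cells sorted by the level of N-myc. The genes were all those on the array whose symbol starts with Eif and a number from 1 to 6, without the sex-chromosome genes Eif2s3x and Eif2s3y, and 45 of 18193 measured genes met this rule. The rule found 48 symbols in all, of which 3 (Eif3j1, Eif3j2 and Eif4ebp3) were named only by probe sets that also name another gene, so they have no value of their own here. Eif2s1, Eif4g1 and Eif3g were not analysed here. The cells were bone marrow cells of transgenic mice with a fusion gene of N-myc and mCherry, a red fluorescent protein, and were gated, per the labels' protocols, as Lin-Sca+Kit+CD48-CD150+ cells with no culture and no treatment. mCherry then split the same gate into an N-myc high group of 2 arrays and an N-myc low group of 2 arrays. Each group has an array labelled mouse 1 and an array labelled mouse 2, and both groups carry the fusion gene, so there is no group without it. The strain and age of the mice and the number of sorted cells were not given in the sources used here.

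Initiation factors bring the ribosome to the start codon of an mRNA. eIF2 carries the initiator tRNA to the small ribosomal subunit, eIF3 is the large scaffold on that subunit, eIF1 and eIF1A keep it scanning, and eIF4F, made of the cap binder eIF4E, the scaffold eIF4G and the helicase eIF4A, recruits it to the capped mRNA. eIF2B recharges eIF2 with GTP, and the eIF2 kinases block that step under stress. eIF5 acts at the start codon, eIF5B joins the ribosomal subunits and eIF6 keeps free large subunits from joining small ones. eIF5A helps the ribosome through difficult peptide bonds. MYC family proteins are known to drive genes of protein synthesis, several eIF genes among them, and haematopoietic stem cells are known for a low rate of protein synthesis.

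The deposited values are log2 intensities of Affymetrix probe sets normalised by the authors with RMA, so a difference of 1 is a 2-fold difference, and a shift shared by all transcripts of an array is not seen. The 4 arrays had medians of 5.26 to 5.32, and each pair of arrays correlated across genes at 0.972 to 0.98. The RNA input was 5 ng, which was amplified. Hybridisation control spots were at 10.81 to 11.05 on 3 arrays and at 11.67 on the array of N-myc low, mouse 2, which stood apart on this measure. Mycn, the gene behind the sort, was at 10.48 (mouse 1) and 10.39 (mouse 2) in the N-myc high group and at 9.44 and 9.65 in the N-myc low group. Of the genes that define the gate, Kit lay between 10.17 and 10.53 and Slamf1, which codes for CD150, between 8.01 and 8.99 on the 4 arrays, while Ly6a was not analysed here. Cd48, whose protein the gate leaves out, differed between the groups, at 7.42 and 7.11 in the high group against 9.89 and 9.07 in the low group (-2.21, SE 0.34, limma adjusted p = 0.744). Some markers of several cell types moved with the groups, where 15.6% of all genes had each N-myc high array above each N-myc low array and 20.8% had each below. Above were 6 of 8 long-term stem cell genes, 2 of 4 B cell genes (Vpreb1, 2.45, and Cd79a, 0.65), 2 of 5 macrophage and dendritic genes (C1qb, 2.66, and H2-Aa, 1.42), 1 of 4 multipotent progenitor genes (Flt3, 1.20) and 1 of 6 granulocyte and monocyte genes (Csf1r, 0.27). The other B cell genes, Cd79b (-0.21) and Ms4a1 (-0.25), had overlapping arrays. So did the other macrophage and dendritic genes, C1qa (0.32), Itgax (0.01) and Adgre1 (-0.14). Below were the other 5 granulocyte and monocyte genes and 3 of 4 erythroid genes (among them Klf1, -0.93, and Gata1, -0.80). Also below were 3 of 4 multipotent progenitor genes (Cd48, Cdk6, -0.97, and Cd34, -0.55) and 2 of 5 T and NK cell genes (Gzmb, -0.87, and Nkg7, -0.77). The other T and NK cell genes, Cd8a (0.23), Cd3e (0.01) and Cd3g (-0.01), had overlapping arrays, and Cd3e lay between 3.20 and 3.29. The summed level of the granulocyte and monocyte list was 14.66 and 14.54 (log2) for N-myc high against 14.81 and 14.82 for N-myc low. That of the macrophage and dendritic list was 10.25 and 10.23 against 8.81 and 8.65, and that of the erythroid list 9.08 and 8.82 against 9.77 and 9.61. In N-myc high, the brightest entries of the macrophage and dendritic list were H2-Aa (9.68 and 9.59) and C1qb (8.24 and 8.48). The part of any difference in cell mixture in the values below was not tested. In sorted bulk RNA, fewer cells of a type and less RNA per cell cannot be told apart.

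As a group, the eIF genes had a difference near 0 between N-myc high and N-myc low stem cells, with single genes on both sides. The median difference, N-myc high minus N-myc low, was -0.02 over the 45 genes and -0.03 over all 18193 genes. It was 0.00 in mouse 1 and -0.02 in mouse 2. Of the 45 genes, 21 had a positive and 24 a negative difference, against 8234 and 9959 of all 18193 genes. A difference under 0.25 was found for 31, against 10484 of all genes. For 5 it was more than 0.5 (11.1%, against 16.6% of all genes). The 5 were Eif2ak3 (0.97), Eif4e2 (0.65), Eif3b (0.53) and Eif1b (0.53) on the higher side and Eif2b4 (-0.74) on the lower side.

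In limma, 0 eIF genes passed a Benjamini-Hochberg adjusted p under 0.05, as did 0 of 18193 genes (0.0%), and the lowest adjusted p among eIF genes was 0.779. At an unadjusted p under 0.05, 2 of 45 eIF genes were found, against 6.31% of all genes. Both were higher (Eif3b and Eif1b), where 3.53% of all genes were, and 0 were lower, where 2.78% of all genes were. The arrays of the groups did not overlap for 16 eIF genes, 8 with the higher values in N-myc high, where the share of all genes was 15.6%, and 8 with the lower values there, where it was 20.8%. The difference had the same sign in both mice for 64.4% of eIF genes and for 53.0% of all genes. It was positive in both mice for 14 eIF genes, where the share of all genes was 23.2%, and negative in both for 15, where it was 29.7%. The mouse number was also entered in the fit as a replicate block, on the reading that arrays of one number share an animal. The count at an unadjusted p under 0.05 in limma then went from 2 to 0. Of all genes, 3.59% were higher and 2.45% lower at that p in this fit. Leaving out mouse 1 of N-myc high gave a median eIF difference of -0.05, against -0.01 over all genes. Leaving out mouse 2 of N-myc high gave 0.02, against -0.05. Without mouse 1 of N-myc low the median was 0.01, against -0.02, and without mouse 2 of N-myc low it was -0.05, against -0.03. With 2 arrays a group, the median standard error (SE) of an eIF difference was 0.225. A value that missed the threshold does not show that a gene was alike in both groups.

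**Figure D1:**
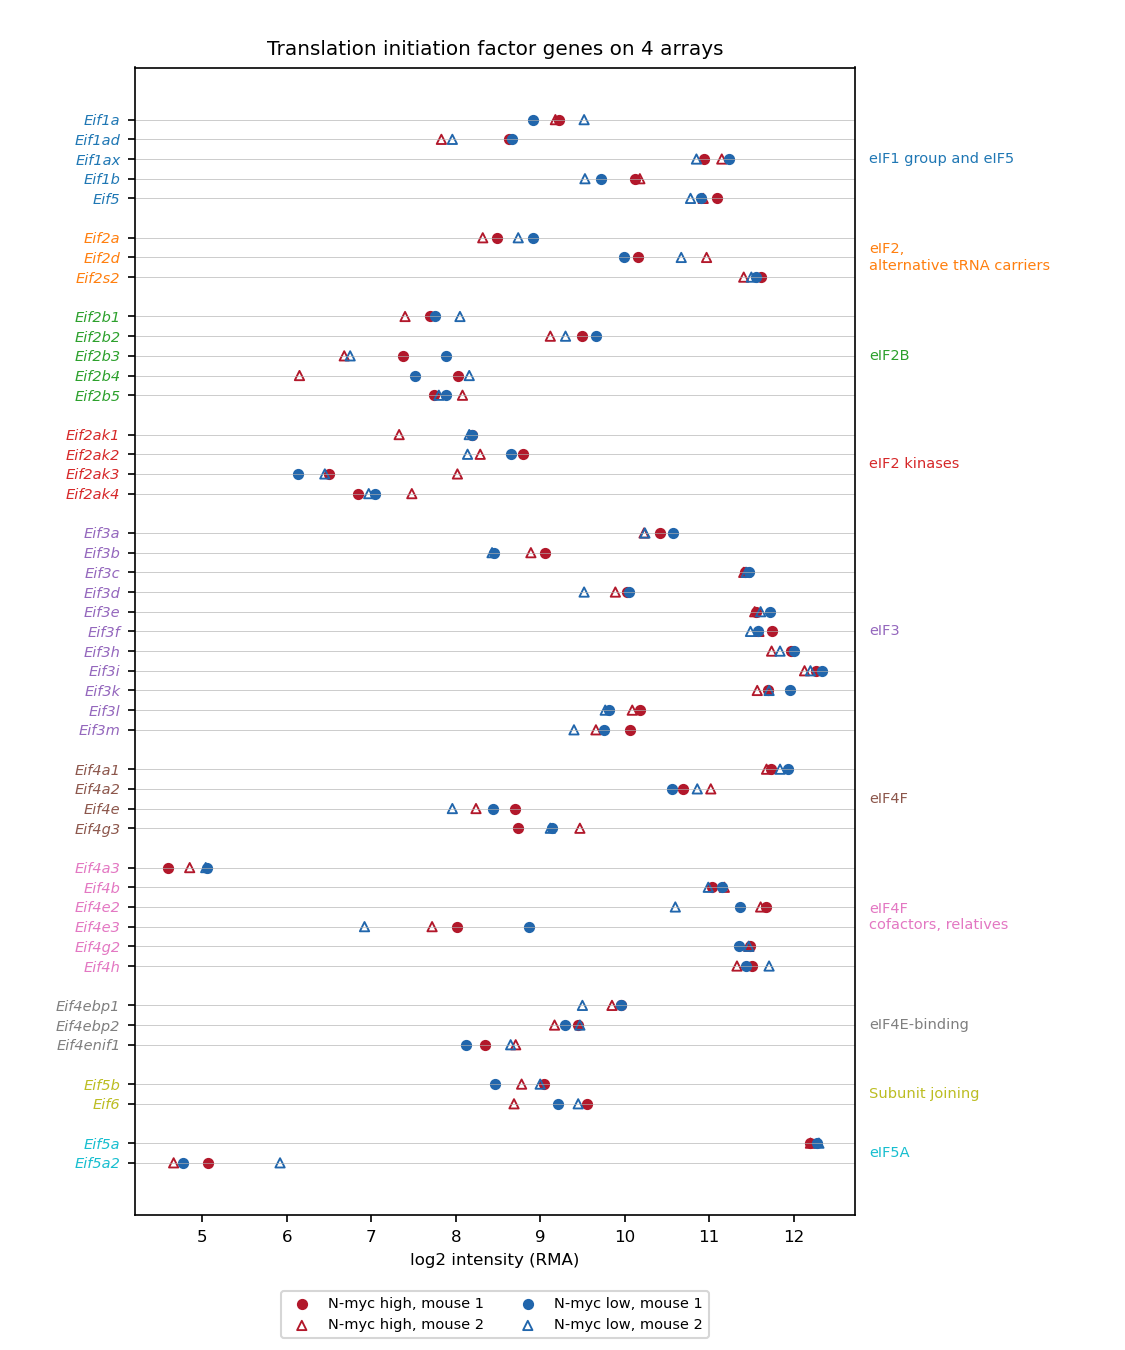
Log2 intensity of each of the 45 eIF genes (rows, grouped and coloured by complex) on the 4 arrays, with N-myc high in red, N-myc low in blue, mouse 1 as filled circles and mouse 2 as open triangles. The points of most eIF3 genes lie close together, while Eif4e3, Eif2b4 and Eif2ak3 spread over more than 1.5 log2 units; levels of different genes come from different probes and cannot be ranked against each other.

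The promoters of these genes were searched for the E-box CACGTG, a palindrome that dimers of MYC family proteins with MAX can bind, since N-myc defined the sort. RefSeq promoter windows (GRCm38.p6, 250 bases before to 50 after a transcript start, 300 in all) were matched by symbol for 36 of the 45 genes, and 9 of them (25.0%) held the E-box in at least 1 window. Among all 14452 measured genes with such a window the share was 10.2%. Per window the shares were 11 of 49 (22.4%) and 8.72%. The 9 genes were Eif1b, Eif3a, Eif3f, Eif3k, Eif4a1, Eif4e, Eif4h, Eif5a and Eif5a2. The E-box was held by 0 of the 11 genes with a window among the tRNA carriers, eIF2B and the eIF2 kinases. It was also held by 0 of 2 eIF4E-binding genes and 0 of 1 gene of subunit joining. These numbers are too small to set against a share of 10.2%. The following stretches of 40 bases show the E-box in capitals with 17 bases on each side, 5′ to 3′ on the strand of the gene, for those genes whose values are described below and where the stretch lies wholly before the start.
Eif1b: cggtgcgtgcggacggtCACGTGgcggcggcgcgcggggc
Eif3f: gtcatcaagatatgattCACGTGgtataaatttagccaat
Eif3k: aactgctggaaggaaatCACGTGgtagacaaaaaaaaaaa
Eif4a1: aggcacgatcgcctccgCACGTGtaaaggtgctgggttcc
Eif4e: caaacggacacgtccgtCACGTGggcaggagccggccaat
Eif4h: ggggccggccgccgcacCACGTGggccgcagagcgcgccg
Eif5a: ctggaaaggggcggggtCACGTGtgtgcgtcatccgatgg
Eif5a2: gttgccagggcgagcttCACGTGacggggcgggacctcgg
They lie at chr9:120492565-120492604 (plus strand, E-box 24 bases before the start) for Eif1b, chr7:108934330-108934369 (plus, 68 bases) for Eif3f, chr7:28981910-28981949 (minus, 44 bases) for Eif3k and chr11:69672590-69672629 (minus, 189 bases) for Eif4a1. Those of Eif4e, Eif4h, Eif5a and Eif5a2 lie at chr3:138527187-138527226 (plus, 64 bases), chr5:134639483-134639522 (minus, 96 bases), chr11:69921438-69921477 (minus, 74 bases from the nearest of its starts) and chr3:28781143-28781182 (plus, 117 bases). The 9 genes with the E-box had a median difference of -0.09 (range -0.48 to 0.53), with 3 positive and 6 negative, and the 27 genes with a window and no E-box had one of 0.07 (range -0.74 to 0.97), with 16 positive and 11 negative. Genes with the E-box were thus found on both sides of 0. A match of letters is a description of the window and does not show that N-myc binds there.

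Among the genes of the eIF1 group and Eif5, Eif1b had the largest difference. Eif1b, a close paralog of the start codon selection factor eIF1, was at 10.12 and 10.18 in N-myc high and at 9.72 and 9.53 in N-myc low (mouse 1 and mouse 2). The N-myc high arrays were the upper pair. Its mean was 10.15 ± 0.0484 (SD, n = 2) against 9.62 ± 0.132 (SD, n = 2) in the low group, a 1.44-fold difference of 0.53 with an SE of 0.184 (limma adjusted p = 0.779). Eif1b rests on 1 probe set. Eif5, which makes eIF2 hydrolyse its GTP at the start codon, was at 11.09 and 10.93 in N-myc high against 10.90 and 10.78 in N-myc low, with a difference of 0.16 that is smaller than its SE of 0.185. Of its other 4 probe sets, 1 had the same sign. The eIF1A genes Eif1a and Eif1ax had differences of -0.02 and 0.00 with opposite signs in the mice, and Eif1ad, an eIF1A-domain gene, had -0.09. The median of these 5 genes was 0.00.

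The carriers of the initiator tRNA did not move together. Eif2s2, the beta subunit of eIF2, was at 11.61 and 11.41 in N-myc high and at 11.56 and 11.50 in N-myc low, and its difference of -0.02 had a 95% interval of -0.51 to 0.47. Eif2a, a factor separate from eIF2 that can also bring initiator tRNA to the ribosome, was at 8.49 and 8.32 in N-myc high and at 8.92 and 8.74 in N-myc low. The N-myc high arrays were the lower pair, with -0.43 in mouse 1 and -0.42 in mouse 2, and the difference of -0.43 had an SE of 0.19 (limma adjusted p = 0.793). A second probe set of Eif2a gave -0.44 and a dim one 0.24. Eif2d, which also delivers tRNA without GTP, had a difference of 0.24 from its brightest probe set, at 10.16 and 10.97 in N-myc high against 9.99 and 10.67 in N-myc low, so the mice differed more than the groups. Its next brightest probe sets, at means of 9.06 and 7.89, gave 0.19 and -0.14. The 2 probe sets near 5.4 gave -1.05 and -1.27, which is the opposite sign, and the dimmest, at 3.68, gave -0.11.

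In eIF2B, which recharges eIF2, most subunits had a lower mean in N-myc high, with wide spread between arrays. Of the 5 eIF2B subunits, 4 had a negative difference, where 9959 of all 18193 genes had one. The median was -0.29, with -0.14 in mouse 1 and -0.18 in mouse 2. Eif2b1, the alpha subunit, was at 7.69 and 7.40 in N-myc high and at 7.75 and 8.05 in N-myc low, which do not overlap, and its difference was -0.36 (SE 0.22, limma adjusted p = 0.818). Eif2b4, the delta subunit, was at 8.03 and 6.15 in N-myc high and at 7.52 and 8.16 in N-myc low. The low value of N-myc high mouse 2 set its difference of -0.74 (SE 0.683), which was 0.20 without that array. Eif2b2, Eif2b3 and Eif2b5, the beta, gamma and epsilon subunits, had -0.17, -0.29 and 0.07, each with overlapping arrays. Without N-myc high mouse 2 the median of the complex was 0.02, and without N-myc low mouse 1 it was 0.01.

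Of the 4 eIF2 kinases, Eif2ak3, which codes for PERK, the kinase that senses unfolded protein in the endoplasmic reticulum, had the largest difference of all eIF genes. It was at 6.50 and 8.02 in N-myc high and at 6.13 and 6.45 in N-myc low. The groups did not overlap, but the gap between them was small and most of the difference of 0.97 (SE 0.544, limma adjusted p = 0.807) came from N-myc high mouse 2. The difference was 0.38 in mouse 1 and 1.57 in mouse 2, and 0.22 without that array. Its second probe set gave 0.45 with no overlap, and a dim one, at a mean of 2.71, gave -0.05. Eif2ak1, the haem-regulated kinase, was at 8.19 and 7.33 in N-myc high and at 8.19 and 8.16 in N-myc low, so that the array of N-myc high mouse 2 set its difference of -0.42, which was 0.01 without that array. Eif2ak2, the interferon-induced kinase PKR, and Eif2ak4, which codes for the amino acid sensor GCN2, had 0.14 and 0.15 with overlapping arrays.

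eIF3 had the lowest median SD between arrays of a group among the 10 complexes, in both groups. Its 11 measured subunits lay between mean levels of 8.71 and 12.23, 8 differed by less than 0.25, and the median difference was -0.04. This SD was 0.0971 for N-myc high arrays and 0.0965 for N-myc low arrays, against 0.173 and 0.193 over all genes. The median level was 11.44 for eIF3 and 6.22 over all genes, and the part of brightness in the SD was not tested. The poly(A) and recycling partners described below had lower SDs still, at 0.0264 and 0.0509. The sign was the same in both mice for 10 of 11 subunits, all but Eif3d, with 4 positive and 6 negative. Eif3b, an RNA-binding core subunit, was at 9.06 and 8.89 in N-myc high and at 8.45 and 8.43 in N-myc low. Both N-myc high arrays exceeded both N-myc low arrays, by 0.61 in mouse 1 and 0.45 in mouse 2. Its mean was 8.97 ± 0.124 (SD, n = 2) against 8.44 ± 0.0157 (SD, n = 2), a 1.45-fold difference of 0.53 with an SE of 0.182 (limma adjusted p = 0.779), on 1 probe set.

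Eif3l, a subunit that partners Eif3k at the edge of the complex, was at 10.18 and 10.09 in N-myc high and at 9.82 and 9.77 in N-myc low. These did not overlap, and the difference of 0.34 had an SE of 0.175 (limma adjusted p = 0.806). Its less bright probe sets gave 0.13 and -0.09. Eif3k itself was at 11.70 and 11.57 in N-myc high and at 11.96 and 11.71 in N-myc low, with -0.20 (SE 0.195), so the 2 partners differed in sign. That contrast between partners was not tested. Eif3f, a subunit of the same outer module as Eif3h and Eif3m, was at 11.75 and 11.59 against 11.58 and 11.49, a difference of 0.13 with no overlap but smaller than its SE of 0.182. Eif3m was at 10.06 and 9.66 against 9.76 and 9.40, with 0.28 and overlapping arrays. With an array left out this difference of Eif3m ran from 0.08 to 0.48, and its other, dimmer probe set gave -0.18. Eif3d, which can bind the cap of some mRNAs, was at 10.03 and 9.89 against 10.05 and 9.52, and its difference of 0.18 was -0.09 without N-myc low mouse 2.

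The remaining eIF3 subunits had differences between -0.11 and -0.04. Eif3a, the large scaffold subunit, had -0.08, Eif3c, its partner in the core, -0.04, Eif3e -0.11, Eif3h -0.07 and Eif3i -0.07. Their 95% intervals were wide for so small a design, from -0.49 to 0.42 for Eif3c and from -0.65 to 0.48 for Eif3a. Eif3c was at 11.43 and 11.41 in N-myc high against 11.47 and 11.44 in N-myc low, so its arrays were apart in order although the values nearly coincide.

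**Figure D2:**
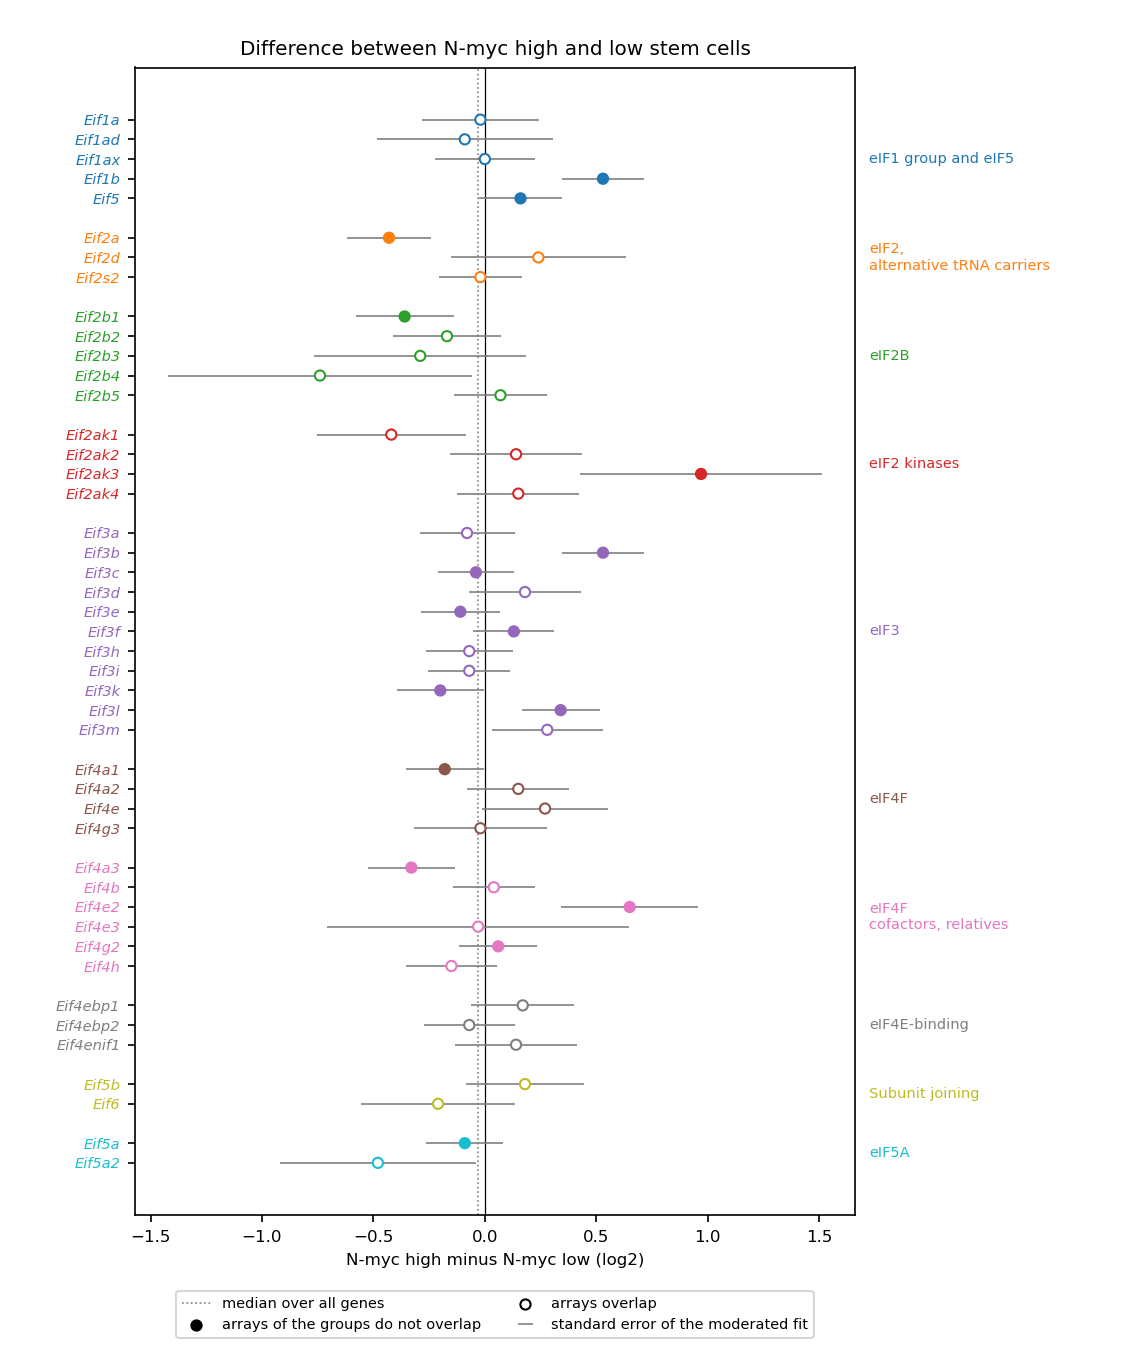
Difference between N-myc high and N-myc low on the log2 scale for each eIF gene, with its SE from the moderated limma fit as the bar and the median over all genes as the dotted line. Filled points mark the 8 genes above and 8 below whose arrays do not overlap between groups; the eIF3 points lie near 0 apart from Eif3b, Eif3l and Eif3m, and the widest bars are those of Eif2b4 and Eif4e3.

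The cap-binding complex eIF4F showed differences of mixed sign within its measured parts. Eif4e, the cap binder, was at 8.70 and 8.24 in N-myc high and at 8.44 and 7.96 in N-myc low. It was higher in N-myc high by 0.26 in mouse 1 and 0.28 in mouse 2, but mouse 1 exceeded mouse 2 by more than that in both groups, so the arrays overlap and the difference of 0.27 had an SE of 0.281. With an array left out it ran from 0.03 to 0.51, and over the mean of its 4 probe sets it was 0.00. The other probe sets of Eif4e, at means of 8.28, 5.53 and 4.95, gave 0.07, 0.11 and -0.44. Eif4a1, the main RNA helicase of the complex, was at 11.73 and 11.68 against 11.93 and 11.84, a difference of -0.18 (SE 0.175) with no overlap. Its other bright probe sets gave 0.11 and -0.32. Eif4a2, its paralog, was at 10.69 and 11.02 against 10.56 and 10.86, with 0.15. Eif4g3, a scaffold paralog, was at 8.74 and 9.47 against 9.14 and 9.12, with -0.02 and opposite signs in the mice.

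Relatives and cofactors of eIF4F were likewise mixed. Eif4e2, an eIF4E homolog that can repress translation at the cap, was at 11.67 and 11.61 in N-myc high and at 11.36 and 10.60 in N-myc low. The groups did not overlap, and the low value was that of N-myc low mouse 2, the array with the high hybridisation controls. The difference was 0.65 (SE 0.307, limma adjusted p = 0.793), 0.27 without that array and -0.01 over the mean of its 5 probe sets, of which 2 gave -0.49 and -0.43. Eif4e3, another homolog, was at 8.01 and 7.72 in N-myc high and at 8.87 and 6.92 in N-myc low, so both N-myc high arrays lay between the N-myc low arrays.

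Eif4h, which stimulates the helicase, was at 11.51 and 11.33 against 11.44 and 11.71, a difference of -0.15. All of its other 5 probe sets were negative, from -1.14 at a dim mean of 5.17 to -0.03 at a mean of 11.48. Eif4b, the other stimulator, had 0.04, and Eif4g2, a scaffold that lacks the cap-binder site, 0.06. Eif4a3, the helicase of the exon junction complex, was at a dim 4.59 and 4.85 against 5.06 and 5.04, with -0.33 (SE 0.194) and no overlap. A probe set that names Eif4a3 together with the gene Gm5576 was bright, at 9.89 and 9.64 against 9.85 and 10.04, so the rule for probe sets leaves Eif4a3 with a dim value only.

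The proteins that bind eIF4E and block it differed little. Eif4ebp1, the mTOR-regulated repressor of cap-dependent initiation, was at 9.96 and 9.85 in N-myc high and at 9.96 and 9.50 in N-myc low, a difference of 0.17 (SE 0.232) that was -0.06 without N-myc low mouse 2. Eif4ebp2, its paralog, was at 9.45 and 9.17 against 9.29 and 9.47, with -0.07 and opposite signs in the mice. Of its other 4 probe sets, 1 gave -0.60 with both N-myc high arrays below both N-myc low arrays. Eif4enif1, which codes for the eIF4E transporter 4E-T, had 0.14. The probe set shared by Ankhd1 and Eif4ebp3 was at 9.23 and 9.20 against 9.22 and 9.32.

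Of the factors of subunit joining and elongation, Eif5b, the GTPase that joins the subunits, had 0.18 and Eif6, which keeps free large subunits from joining small ones, -0.21, each with opposite signs in the mice. Eif5a was at 12.19 and 12.20 in N-myc high and at 12.28 and 12.30 in N-myc low. Its arrays did not overlap, but the difference was only -0.09 (95% interval -0.55 to 0.37), and its other probe set gave 0.11. Eif5a2, its paralog, was dim, at 5.07 and 4.66 against 4.77 and 5.92. Its difference of -0.48 (SE 0.44) came from N-myc low mouse 2 and was 0.09 without that array.

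**Figure D3:**
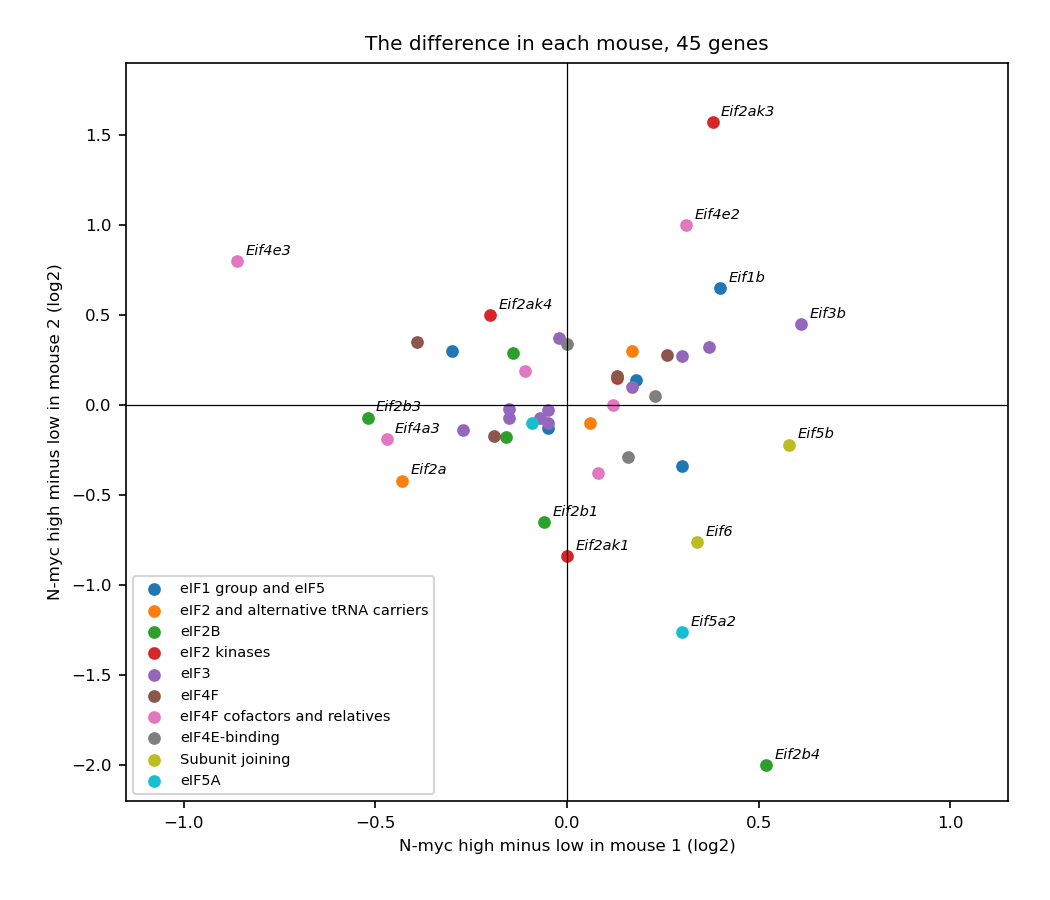
Difference between N-myc high and N-myc low within mouse 1 (horizontal) and within mouse 2 (vertical), on the log2 scale, for the 45 eIF genes coloured by complex; genes past 0.39 in either mouse are named. Eif3b, Eif1b, Eif4e2 and Eif2ak3 lie in the upper right with positive values in both mice and Eif2a in the lower left, while Eif2b4, Eif5a2, Eif6 and Eif4e3 have opposite signs.

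Other probe sets of the same genes gave differences that do not enter the values above. Of the 45 genes, 35 had more than 1 probe set, 128 in all for the 45. Of the 83 probe sets that did not stand for their gene, 44 had the sign of the one that did. Only 8 of the 35 genes had all probe sets of 1 sign, among them Eif3e, Eif3i, Eif4b, Eif4ebp1 and Eif4h, and 27 had at least 1 of the other sign. When each probe set was tested on its own, 0 passed the adjusted threshold in limma and 7 of 128 (5.47%) had an unadjusted p under 0.05, against 6.32% of all 34945 probe sets. Of these 7, 2 were higher in N-myc high, where 3.36% of all probe sets were, and 5 were lower, where 2.96% were. The lower ones were a probe set of Eif4ebp2 at a mean of 9.13 and dim ones of Eif2d, Eif4g3 and Eif4h, at means of 3.13 to 5.45. Probe sets whose names end in _s_at or _x_at can match more than 1 transcript, and 6 of the 45 genes rest on one, namely Eif1a, Eif3m, Eif4h, Eif5a, Eif2b2 and Eif3e.

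**Figure D4:**
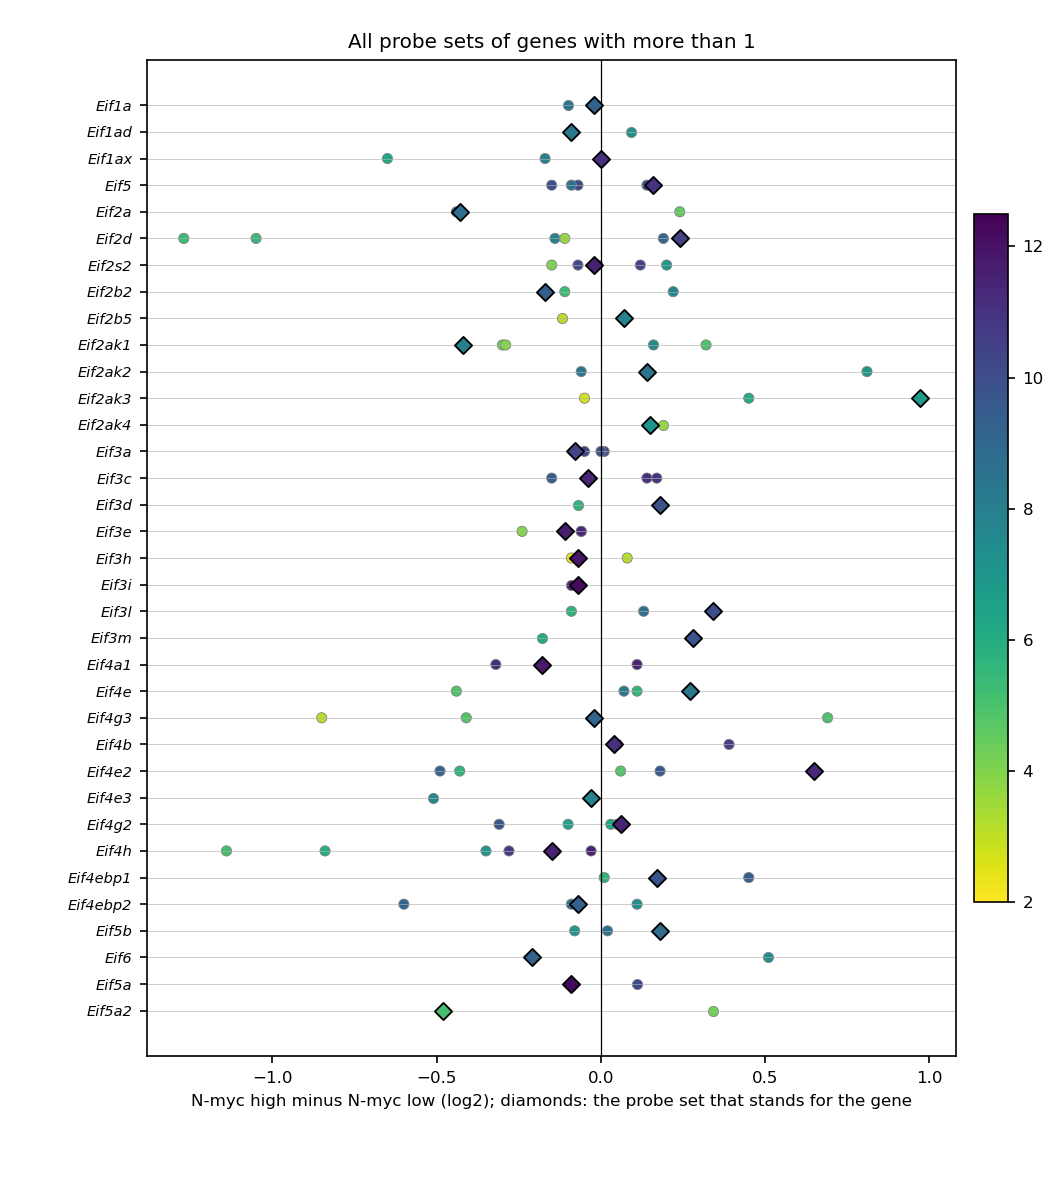
Difference between N-myc high and N-myc low on the log2 scale for every probe set of the 35 eIF genes that have more than 1, coloured by mean log2 intensity; the diamond is the probe set that stands for the gene. Bright probe sets of Eif3a, Eif3e and Eif3i lie close to each other near 0, while the dim ones of Eif2d, Eif4g3 and Eif4h spread to values below -0.8.

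Genes that work with the initiation factors were listed separately from them, and none passed the adjusted threshold in limma. Of 11 genes of the integrated stress response, the programme that eIF2 phosphorylation sets off, 1 (Trib3) was higher at an unadjusted p under 0.05, where 3.53% of all genes were, and 0 were lower, where 2.78% were. The median difference of these 11 genes was 0.24, with 0.00 in mouse 1 and 0.54 in mouse 2. Trib3, a pseudokinase gene induced by that programme, was at 7.55 and 7.35 in N-myc high and at 6.25 and 6.81 in N-myc low, a difference of 0.92 (SE 0.264, limma adjusted p = 0.769). Impact, an inhibitor of the kinase GCN2, was at 8.23 and 8.87 against 7.93 and 7.64, with 0.77 (SE 0.293, limma adjusted p = 0.779). Chac1, a glutathione-degrading enzyme gene of the same programme, had -0.50 with overlapping arrays. The other negative genes of the list were Ddit3 and Asns. Ddit3 had -0.27 with both N-myc high arrays below both N-myc low arrays, and Asns had -0.12 with overlapping arrays.

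Of 13 genes of mTORC1 and eIF4E control, 0 had an unadjusted p under 0.05 and the median was -0.01. The smallest p values were those of Mknk1, an eIF4E kinase gene, with 0.57, of Rptor, the mTORC1 scaffold gene, with -0.56, and of Akt1s1, an mTORC1 inhibitor gene, with 0.21, each with overlapping arrays. Of 10 poly(A) and recycling partners, 0 had an unadjusted p under 0.05 and the median was -0.01, with Paip1, a partner of the poly(A)-binding protein, at -0.43 with no overlap, Abce1, the ribosome recycling factor, at -0.21 with no overlap, and the helicase gene Dhx29 at 0.27. The 9 measured elongation and termination genes had a median of 0.00 and ranged from -0.28 (Gspt1, a termination factor) to 0.08, with Eef1e1 at -0.25 and Gspt2 at -0.17. The mitochondrial initiation factor genes Mtif2 and Mtif3 had -0.15 and 0.08.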

How the data were processed

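RNA of 4 sorted samples, 2 per group, was measured on Affymetrix mouse arrays. The deposited log2 intensities were made by the authors with RMA, per the submitters' processing notes, where affy and limma also appear, with no versions. The genome build, chip definition and filters were not given in the sources used here. No detection calls were used, and the low number of arrays limits precision. Of 45101 probe sets, 34945 had a single gene name; 932 had several and 9160 none, and these were not tested. The probe set with the highest mean stood for each of 18193 genes. Groups were compared over all genes with limma 3.58.1 in R 4.3.3 (lmFit, eBayes; Benjamini-Hochberg threshold 0.05), tested on simulated data, where the adjusted threshold missed simulated differences larger than any eIF difference printed here, so a count of 0 past it carries little information. With 2 against 2 arrays an exact permutation p cannot go below 0.333. The main fit held the group only and treated the 4 arrays as independent. For differences within a mouse and for the replicate block, arrays of one mouse number were read as the same animal. The labels do not state this outright. Deviations of such arrays from the group means correlated at 0.0492. Alternatives are in the closing section. Named with all 4 arrays were the 20 eIF genes of smallest unadjusted p, the eIF4F genes, Eif4ebp1, Eif4ebp2 and Eif2s2. Per related list, the 3 genes of smallest p were named, with all 4 arrays for Trib3 and Impact. Eif2d, Eif4e3, Eif3c and Eif5a were given array by array after their values were seen. Ddit3 and Asns were also named after their values were seen. The members and lists were chosen with earlier results of these data known.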

Additional observations from a re-analysis of the deposited data

How the results depend on the processing

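Under each of the 10 alternatives, 0 eIF genes passed the adjusted threshold in limma. The median difference ranged from -0.07 to 0.02. The count higher at an unadjusted p under 0.05 went from 2 to 0 with the mouse as a replicate block, without the dimmer genes and with arrays centred on their medians, and was 0 to 2 with an array left out; the count lower was 0 to 2. With centred arrays, which moved the median of all genes from -0.03 to -0.08, the groups did not overlap for 4 higher genes in place of 8 and for 10 lower ones, against 12.4% and 26.4% of all genes. With an array left out these counts were 13 to 16 higher and 11 to 21 lower, where fewer arrays can overlap and the shares of all genes were 28.1% to 32.7% and 34.3% to 38.8%. Every probe set on its own gave 2 higher and 5 lower of 128 at an unadjusted p under 0.05 in limma, against 3.36% and 2.96% of all probe sets. Without overlap were 17 higher and 30 lower, against 15.4% and 20.8% of all probe sets. The mean of a gene's probe sets turned Eif4e2 to -0.01, Eif5 to 0.00 and Eif2s2 to 0.01, and gave 0.00 for Eif4e and 0.05 for Eif3m; no other of the 24 named genes turned sign except with an array left out. Then 9 did, and their differences ranged from -0.39 to 0.34 (Eif4g3), -0.85 to 0.01 (Eif2ak1), -1.68 to 0.20 (Eif2b4), -0.02 to 0.31 (Eif4a2), -0.20 to 0.07 (Eif4ebp2), -0.12 to 0.08 (Eif2s2), -1.05 to 0.09 (Eif5a2), -0.06 to 0.40 (Eif4ebp1) and -0.09 to 0.44 (Eif3d). Of those that kept their sign, the range was 0.22 to 1.73 for Eif2ak3, 0.27 to 1.04 for Eif4e2, -0.50 to -0.21 for Eif2b1, -0.46 to -0.19 for Eif4a3, -0.33 to -0.08 for Eif3k, -0.29 to -0.01 for Eif4h, 0.05 to 0.21 for Eif3f and 0.08 to 0.24 for Eif5. The cause of these changes was not tested. A lone array in a group was assumed to vary like the others.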
